A study of Mus musculus with 4 samples.

Results

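Heat shock proteins are molecular chaperones, most of which became known through their induction by heat. They hold, fold and release other proteins and keep damaged ones from clumping. In the cytosol, ATP-driven chaperones of the Hsp70 and Hsp90 families work with J-domain proteins, which deliver clients to Hsp70, with Hsp110 proteins, which recharge Hsp70 with ATP, and with small heat shock proteins, which bind unfolded chains without ATP. The mitochondrial matrix has its own chaperonin of Hsp60 and Hsp10. Transcription of many of these genes is driven by heat shock factor 1, which binds heat shock elements, alternating GAA and TTC units set a short gap apart. In liver, a tissue that makes large amounts of secreted and metabolic protein, their expression is also known to vary with feeding and time of day.

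The heat shock proteins described here are 10 genes chosen by name: Hspa1a, Hspa1b, Hspa8, Hsp90aa1, Hsp90ab1, Hsph1, Dnajb1, Hspb1, Hspd1 and Hspe1. Every probe (a short DNA sequence spotted on an array) whose gene name in the scanner files was one of these was taken. This gave 14 probes for 9 of the 10 genes, out of 13861 named genes with a kept probe, and no probe carried the name Hspa1b. All 14 probes passed the filter on dim probes, and all 14 were well above background in every fasted and every re-fed liver.

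Male C57BL/6J mice aged 8 to 12 weeks were either fasted for 24 h, or fasted for 24 h and then given food for 2 h, so that both groups had gone through the same fast. The fasted mice were killed at once and the re-fed mice after the 2 h of food. Feeding and time since the start of the fast thus cannot be told apart. The strain label reads C57/Bl6 on every sample. RNA of 4 individual fasted and 4 individual re-fed livers was compared on 4 two-colour arrays, each holding 1 fasted and 1 re-fed liver paired at random, and each array is called a replicate here. The fasted liver carried the dye Cy5 (red) on replicates 1 and 2 and Cy3 (green) on replicates 3 and 4.

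All ratios below are log2 ratios of fasted over re-fed liver, so a negative value is a lower level in the fasted liver. A log2 level is the brightness of a probe in the RNA of one liver after normalization, and it can be compared between livers but not between probes. The term called is used of a probe that changed by at least 1.5-fold with a limma adjusted p below 0.10. The samples are whole livers, in which fewer cells of a type and less RNA per cell cannot be told apart.

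The tissue label held, since all 10 hepatocyte markers were well above background in every liver. One liver stood apart: on replicate 3 the 11 pancreatic acinar markers measured had a median log2 ratio of -3.55, against -0.04 to 0.01 on the other arrays. Their summed log2 level reached 15.0 in the re-fed liver of that array and lay between 9.94 and 10.9 in the fasted livers. Of 10 muscle markers, 7 were never above background (Acta1, Ckm, Mb, Myh1, Myh11, Myh4 and Tnnt3), and the summed log2 level of blood markers lay between 14.2 and 16.5 in fasted and between 13.6 and 14.7 in re-fed livers. The part of these cells in the results below was not tested, and counts of called members and related genes that changed without replicate 3 are given beside the main ones.

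Most of the heat shock protein genes measured were lower in the fasted livers. Of the 9 genes, taking the brightest probe of each, 8 were called lower and 0 higher. Over all genes, 2.24% were called lower and 1.97% higher by the same rule. The members were chosen with earlier results of these data known, so this contrast is not an independent test. The 8 genes were Hsph1, Hsp90aa1, Hspa1a, Dnajb1, Hspb1, Hspa8, Hsp90ab1 and Hspe1, and Hspd1 was not called. At an unadjusted p under 0.05 in limma 8 genes were lower and 0 higher, and a rebuilt SAM, a permutation-based test, gave the same 2 counts. The median log2 ratio of the 9 genes was -1.33, against 0.01 over all genes. It was -1.11, -1.06, -1.42 and -1.75 on replicates 1 to 4.

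By probe, 12 of 14 were called lower, where 2.08% of all 19719 kept probes were called lower and 1.7% higher. On all 4 arrays 13 of the 14 probes were lower, as were 16% of kept probes. For 12 of the 14 the levels of the 4 fasted and 4 re-fed livers did not overlap, which held in this direction for 7.82% of kept probes. Without replicate 3, 9 of the 14 probes and 5 of the 9 genes were still called, and Hsp90ab1, Hspa8 and Hspe1 by their brightest probes were not. Without replicate 2, 6 genes were called, and without replicate 4, 7. When the background model was fitted to all spots, a few of which had extreme local backgrounds, 0 of the 9 genes were called in limma, 7 were lower at an unadjusted p under 0.05, and 15 and 5 probes of the whole array were called lower and higher.

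**Figure D1:**
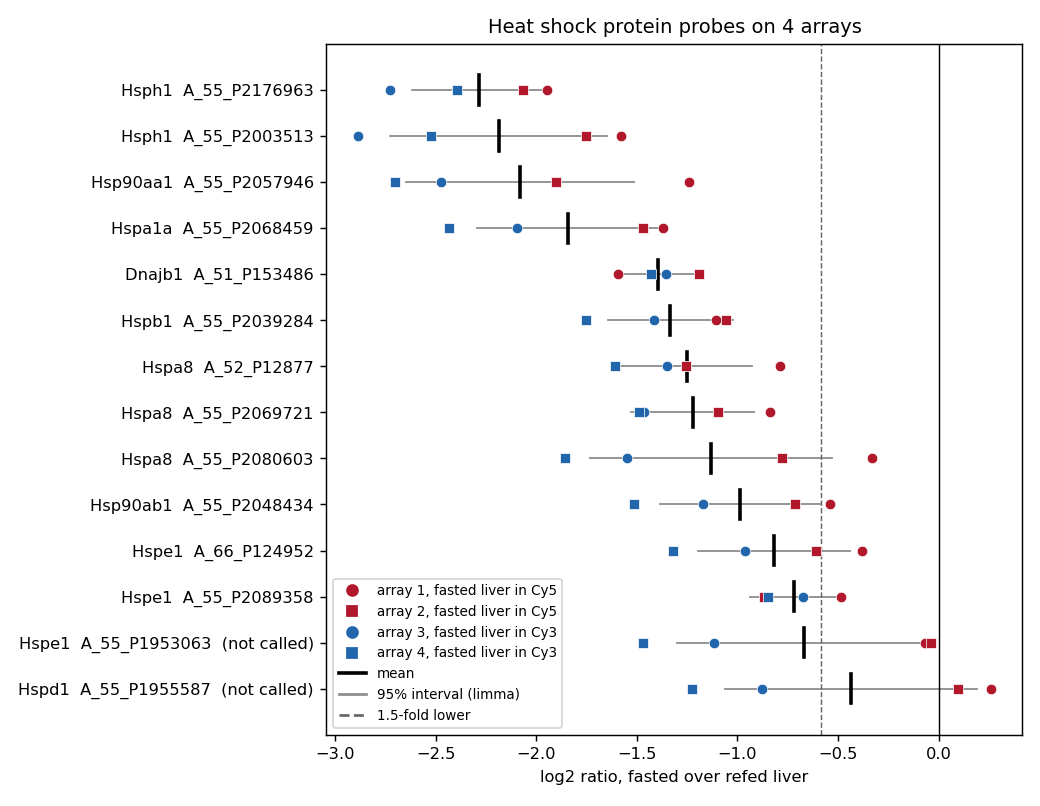
Log2 ratio of fasted over re-fed liver (x axis) for the 14 probes of 9 heat shock protein genes, with 1 point per array, the mean as a black bar and the 95% interval from limma as a grey line. Of the probes, 13 lie below 0 on all 4 arrays, and Hspd1 lies above 0 on the 2 arrays with the fasted liver in Cy5.

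Hsph1 encodes Hsp110, the nucleotide exchange factor of cytosolic Hsp70, and under the main processing it was the member with the lowest mean ratio. Its brighter probe (A_55_P2176963, mm9 chr5:150419744-150419803, minus strand) gave log2 ratios of -1.95, -2.07, -2.73 and -2.39 on replicates 1 to 4. The log2 level was 10.7, 10.8, 9.46 and 9.92 in the fasted livers and 12.6, 12.9, 12.2 and 12.3 in the re-fed livers. Every fasted liver lay more than 1 log2 unit below every re-fed liver. The mean log2 ratio was -2.28 (SE 0.14, n = 4), a level 4.87-fold lower in fasted liver (limma adjusted p = 0.00229). The other probe (A_55_P2003513) gave -2.19 with an adjusted p of 0.00793 in limma. With the background model fitted to all spots the probes were at -1.58 and -1.16 (limma adjusted p = 0.184 and 0.488) and were not called. Hsp90aa1 was then lower, at -1.97. With plain subtraction the Hspa1a probe was lower than the brighter Hsph1 probe, at -2.53 against -2.34.

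Hsp90aa1, the stress-inducible cytosolic Hsp90, was measured by 1 probe at mm9 chr12:111929248-111929307 (minus strand). Its log2 level was 12.3, 12.2, 11.3 and 11.5 in the fasted livers and 13.5, 14.1, 13.8 and 14.2 in the re-fed livers. The log2 ratios were -1.24, -1.90, -2.47 and -2.70, with a mean of -2.08 (SE 0.23), or 4.23-fold lower (limma adjusted p = 0.0109). The groups did not overlap.

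Hsp90ab1, the constitutively expressed Hsp90, shifted less. Its probe (mm9 chr17:45704788-45704847, minus strand) had log2 levels of 15.0, 15.1, 14.4 and 14.3 in the fasted and 15.5, 15.8, 15.5 and 15.8 in the re-fed livers. The log2 ratios of -0.54, -0.72, -1.17 and -1.51 averaged -0.99 (SE 0.17), or 1.98-fold lower (limma adjusted p = 0.0275). Without replicate 3 the mean was -0.92 and the adjusted p in limma was 0.114.

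The inducible Hsp70 is encoded by a pair of near-identical neighbouring genes, Hspa1a and Hspa1b. The single probe named Hspa1a (A_55_P2068459) lists transcripts of both, so its values belong to Hspa1a and Hspa1b together. It lies at mm9 chr17:35107117-35107176 on the minus strand, and is shown here because it carries the only reading of either gene.
Hspa1a probe: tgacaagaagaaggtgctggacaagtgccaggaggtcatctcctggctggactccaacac
The promoters of the pair are also nearly the same. In the windows from 250 bases before to 50 after each transcript start, taken from RefSeq (GRCm38.p6), 98.7% of 300 bases were identical, with 4 substitutions (C44T, T47C, T249G and C276T, counted from 1 at the window's first base, the Hspa1a base first). The 250 bases before the start of Hspa1a (chr17:34972157-34972406, minus strand) hold 1 pair of alternating units, in capitals.
Hspa1a promoter: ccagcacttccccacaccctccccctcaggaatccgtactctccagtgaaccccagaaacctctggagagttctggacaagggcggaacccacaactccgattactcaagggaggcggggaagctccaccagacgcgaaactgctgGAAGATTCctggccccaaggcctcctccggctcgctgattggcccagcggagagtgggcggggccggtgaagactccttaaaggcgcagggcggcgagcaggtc

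This probe, the dimmest member probe by mean signal, gave log2 levels of 7.27, 7.11, 6.40 and 6.64 in the fasted livers and 8.64, 8.58, 8.50 and 9.07 in the re-fed livers. The log2 ratios were -1.37, -1.47, -2.10 and -2.43. Their mean was -1.84 (SE 0.19), or 3.58-fold lower in fasted liver (limma adjusted p = 0.00782). All fasted livers lay below all re-fed livers. The mean moved to -0.76 with the background model fitted to all spots and to -2.53 with plain subtraction, and it was -2.83 with Agilent's processed signals. It was below 0 under every alternative run.

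Hspa8 encodes Hsc70, the constitutive cytosolic Hsp70, and had 3 probes. The brightest (A_55_P2080603, mm9 chr9:40613223-40613282, plus strand) had log2 levels of 14.4, 14.6, 14.3 and 14.4 in the fasted livers and 14.8, 15.4, 15.8 and 16.2 in the re-fed livers. The fasted livers thus differed little among themselves, and the re-fed livers spread over more than 1 log2 unit. Its log2 ratios of -0.33, -0.78, -1.55 and -1.86 averaged -1.13 (SE 0.25), or 2.19-fold lower (limma adjusted p = 0.0547), and it lost its call without replicate 2, 3 or 4 (limma adjusted p = 0.125, 0.189 and 0.142). The other probes (A_52_P12877 and A_55_P2069721) gave mean log2 ratios of -1.25 and -1.22 with limma adjusted p of 0.00993 and 0.00838, and they stayed called without any 1 replicate. The brightest probe and A_55_P2069721, whose 60 bases span 296 bases of mm9 and so cross an intron, also list transcripts that the gene table used here does not hold, so reads of a near-identical copy cannot be set apart from Hspa8.

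Dnajb1 encodes Hsp40, the J-domain partner of inducible Hsp70. Its probe (mm9 chr8:86135660-86135719, plus strand) had the smallest spread between arrays of all 14, with log2 ratios of -1.59, -1.19, -1.36 and -1.43 (SD 0.17). Its log2 level was 11.5, 11.7, 10.9 and 10.9 in the fasted and 13.1, 12.9, 12.3 and 12.3 in the re-fed livers, with no overlap. The mean was -1.39, or 2.63-fold lower (limma adjusted p = 0.00249), and it was -1.39 in both dye orientations.

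Hspb1 encodes Hsp25, the mouse counterpart of human HSP27 and a small heat shock protein. Its probe (mm9 chr5:136365366-136365425, plus strand) gave log2 levels of 12.9, 13.1, 12.3 and 13.0 in the fasted and 14.0, 14.1, 13.7 and 14.7 in the re-fed livers. The log2 ratios of -1.11, -1.06, -1.42 and -1.75 averaged -1.33 (SE 0.13), or 2.52-fold lower (limma adjusted p = 0.0066). The lowest re-fed liver lay above the highest fasted liver.

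**Figure D2:**
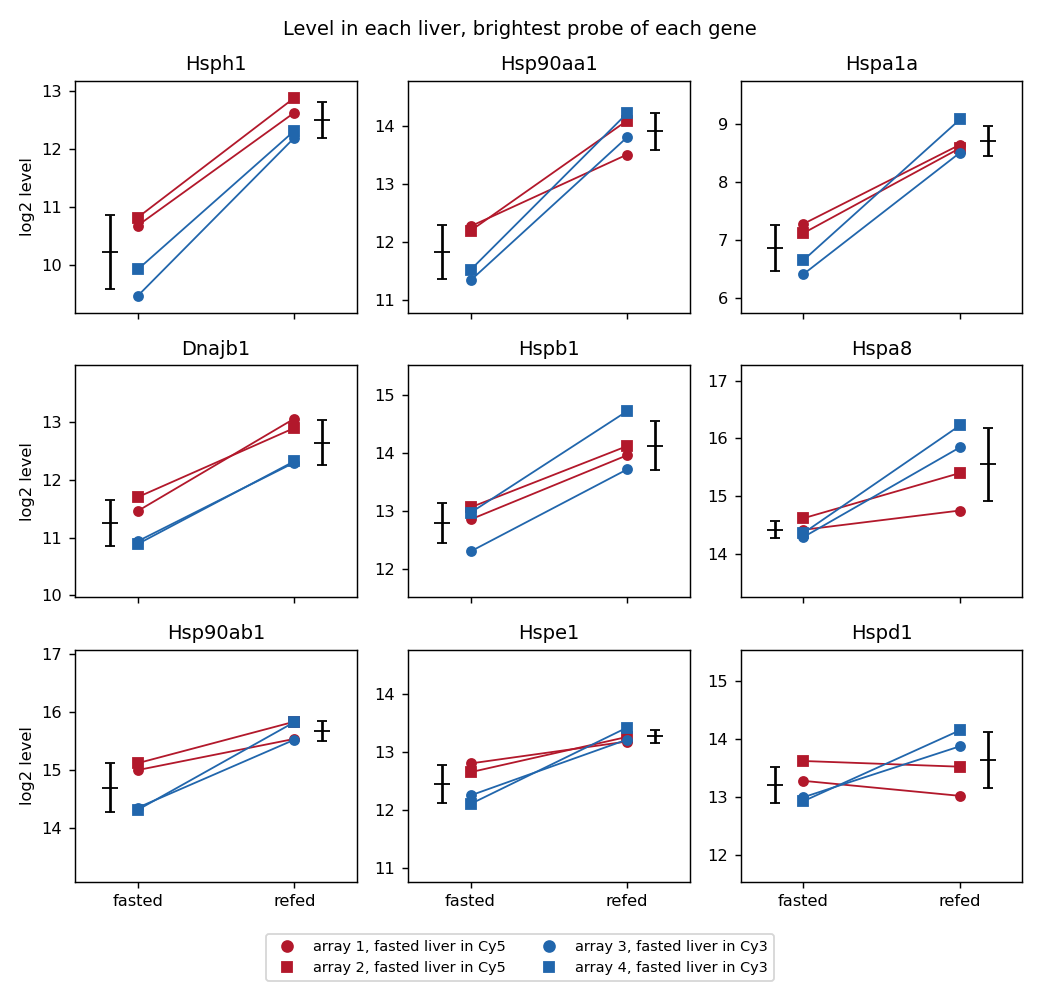
Log2 level in each liver (y axis, 4 log2 units in every panel, each at its own height) for the brightest probe of each gene, with lines joining the 2 livers of an array and the mean and SD of each group in black. Fasted and re-fed livers do not overlap in 8 panels, and in the Hspd1 panel they do.

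Hspd1 and Hspe1 encode Hsp60 and Hsp10, the chaperonin and its lid in the mitochondrial matrix. The genes lie head to head, and 285 bases of the Hspe1 window are shared with the window of one Hspd1 start. Bases -150 to -31 from the Hspe1 start (GRCm38.p6 chr1:55087998-55088117, plus strand, RefSeq) are shown because they hold 4 alternating units in a row, in capitals.
Hspe1 promoter: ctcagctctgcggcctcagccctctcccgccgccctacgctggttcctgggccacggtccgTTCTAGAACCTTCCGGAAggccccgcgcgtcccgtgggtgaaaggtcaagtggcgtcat

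The Hspd1 probe (mm9 chr1:55134697-55134756, minus strand) was not called. Its log2 level was 13.3, 13.6, 13.0 and 12.9 in the fasted and 13.0, 13.5, 13.9 and 14.1 in the re-fed livers, and the groups overlapped. The log2 ratios were 0.26 and 0.10 on replicates 1 and 2 and -0.88 and -1.22 on replicates 3 and 4. The mean of -0.44 had a 95% interval from -1.06 to 0.19 (limma adjusted p = 0.401), which includes both no change and a change as large as that of Hsp90ab1. The mean was -0.67 without replicate 1, -0.29 without replicate 3 and -0.17 without replicate 4.

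Hspe1 had 3 probes. The brightest (A_66_P124952, mm9 chr1:55148026-55148085, plus strand) had log2 levels of 12.8, 12.7, 12.3 and 12.1 in the fasted and 13.2, 13.3, 13.2 and 13.4 in the re-fed livers, without overlap. Its log2 ratios of -0.38, -0.61, -0.96 and -1.32 averaged -0.82 (SE 0.16), or 1.76-fold lower (limma adjusted p = 0.038), and it lost its call without replicate 2 or 3 (limma adjusted p = 0.101 and 0.149). A second probe (A_55_P2089358) gave -0.48, -0.87, -0.67 and -0.85, with a mean of -0.72 and a limma adjusted p of 0.0141. These probes are not independent readings, since 56 of 57 overlapping bases are identical. The shared stretch of 27 bases around the base that differs, in capitals, reads as follows, and the substitution is C15T, counted from 1 at the 5′ end of A_55_P2089358.
A_55_P2089358: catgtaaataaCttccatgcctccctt
A_66_P124952: catgtaaataaTttccatgcctccctt
The remaining probe (A_55_P1953063, whose 60 bases span 327 bases of mm9) was not called, at -0.67 (limma adjusted p = 0.203), with log2 ratios of -0.07 and -0.04 on replicates 1 and 2 and -1.11 and -1.47 on replicates 3 and 4. It was called lower with a dye term in the model (limma adjusted p = 0.0046), with Agilent's processed signals (-0.83, limma adjusted p = 0.0387) and by SAM. Its mean was -0.09 with the background model fitted to all spots, -0.88 without replicate 2 and -0.41 without replicate 4. Its log2 level was 6.55, 7.67, 8.37 and 8.35 in the fasted and 6.62, 7.71, 9.49 and 9.82 in the re-fed livers, so the livers of replicates 3 and 4 were higher than those of replicates 1 and 2 in both groups. All 3 Hspe1 probes and the Hspd1 probe list further transcripts that the gene table does not hold, and reads of near-identical copies cannot be set apart here.

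Most members had ratios closer to 0 where the fasted liver carried Cy5. A dye term, which measures how far the ratio shifts with the dye orientation, was above 0 for 13 of 14 probes, against 49.8% of all kept probes. It was called at an adjusted p under 0.10 for 10 of the 14, where 14.8% of kept probes had a called dye effect. For Hspd1 the mean log2 ratio was 0.18 with the fasted liver in Cy5 and -1.05 with it in Cy3. For Hsp90aa1 it was -1.57 and -2.59, and for Hsph1 (brightest probe) -2.01 and -2.56. The 12 called probes were below 0 in both orientations. Each orientation held its own 2 pairs of livers, so dye and liver cannot be told apart. With the dye term in the model 13 probes were called lower, A_55_P1953063 of Hspe1 being added, and Hspd1 passed the adjusted p (0.0163 in limma) but not the 1.5-fold limit, at 1.35-fold lower. The number of called dye effects was 0 of 14 with Agilent's own processed signals, and 5 with median centring in place of loess, against the 10 above.

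Pearson's r of the ratios across the 14 probes, which share genes and normalization, lay between 0.68 and 0.95 over the 6 pairs of arrays, and across all kept probes between 0.22 and 0.75. Arrays of the same dye orientation were the closest in both cases, with r of 0.92 and 0.95 across the 14 probes and 0.66 and 0.75 across all probes. Between orientations r was 0.68 to 0.84 across the 14 and 0.22 to 0.40 across all. Since r depends on how widely the ratios of a set are spread, values for the 14 and for all probes cannot be compared.

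Related members were compared by their brightest probes, and the size of change differed by the same sign on every array in the 4 comparisons that could be made. The log2 ratio of Hsp90aa1 minus that of Hsp90ab1 was -0.70, -1.19, -1.30 and -1.19, a mean difference of -1.09 (SD 0.27). For Hsph1 minus Hspa8 it was -1.61, -1.28, -1.18 and -0.53, with a mean of -1.15 (SD 0.45), and the mean was -0.48 when the background model was fitted to all spots. For Hspa1a minus Hspa8 it was -1.03, -0.69, -0.55 and -0.57, with a mean of -0.71 (SD 0.22), and this mean turned to 0.34 with the same all-spot fit. The ratio of Hspd1 exceeded that of Hspe1 by 0.64, 0.71, 0.08 and 0.10, with a mean of 0.38 (SD 0.34). This sign rests on the choice of Hspe1 probe: against A_55_P2089358 the difference was 0.74, 0.96, -0.21 and -0.37. The other choices of probes, tried after seeing the data, kept 1 sign on all 4 arrays. For each of the 4 comparisons by brightest probe the exact sign-flip permutation test, two-sided, gave p = 0.125 (also 0.125 after adjustment), the smallest that 4 arrays allow, so the design could not pass 0.05. Of 6 planned pairs, those with Hspa1b could not be compared.

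Promoter windows were given for 7 of the members, and not for Hspa8, Hsp90aa1 and Hsp90ab1. The element of 3 alternating units (GAANNTTCNNGAA or its complement TTCNNGAANNTTC, either strand) was found in the windows of 3 of the 7 (Hspd1, Hspe1 and Hsph1) and in 0.662% of all 27025 genes with a window. That of 4 units (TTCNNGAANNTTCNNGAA) occurred in 2 of the 7, at the 1 shared site of Hspd1 and Hspe1, and in 0.0185% of genes. The 2-unit form GAANNTTC, which the longer elements contain, was found in 6 of 7 members and 9.04% of genes, and the form TTCNNGAA in 3 and 9.6%. The 3-unit and 2-unit counts, too, take in the shared site of Hspd1 and Hspe1 under both genes. The count for GAANNTTC also takes in the near-identical windows of Hspa1a and Hspa1b under both. In Hsph1 the 3-unit match, TTCTGGAAAGTTC, lies after the start, at bases 36 to 48 of the first listed transcript (with the first transcribed base as 0). Dnajb1 had none of these forms in its windows. The exact letters of the cAMP response element TGACGTCA and of the TATA box TATAAA were found in 0 of the 7 (2.03% and 15.7% of genes). CCAAT was found in 5 (41.1%), Hspa1a and Hspa1b both among them. The study also counts a response element with 1 mismatch and the shorter form TGACG or its complement CGTCA, which were not searched for here. The Hspe1 stretch above holds TGGCGTCA, with 1 mismatch, and the Hspb1 stretch below holds CGTCA. These are matches of letters in a 300-base window and say nothing of binding.
The 250 bases before the start are shown for 2 members with strong changes and no 3-unit match there, with the 2-unit forms in capitals: Hspb1 (GRCm38.p6 chr5:135887669-135887918, plus strand) and Hsph1 (chr5:149636337-149636586, minus strand).
Hspb1 promoter: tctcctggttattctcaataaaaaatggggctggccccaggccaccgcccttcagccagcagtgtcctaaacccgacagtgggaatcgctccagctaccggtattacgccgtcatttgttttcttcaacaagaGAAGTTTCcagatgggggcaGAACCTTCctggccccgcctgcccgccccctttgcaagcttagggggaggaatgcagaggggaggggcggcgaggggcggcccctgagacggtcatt
Hsph1 promoter: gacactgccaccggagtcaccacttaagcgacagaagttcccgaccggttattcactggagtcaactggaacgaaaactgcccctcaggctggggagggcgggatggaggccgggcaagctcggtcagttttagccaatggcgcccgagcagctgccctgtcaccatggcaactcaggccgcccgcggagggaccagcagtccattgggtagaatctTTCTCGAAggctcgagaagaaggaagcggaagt
The site with 4 units sat at the members with the smallest mean changes under the main processing, Hspd1 and Hspe1. With the background model fitted to all spots Hspa1a (-0.76) changed less than the brightest Hspe1 probe (-0.84). The promoters of Hspa8, Hsp90aa1 and Hsp90ab1 could not be searched for this site.

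**Figure D3:**
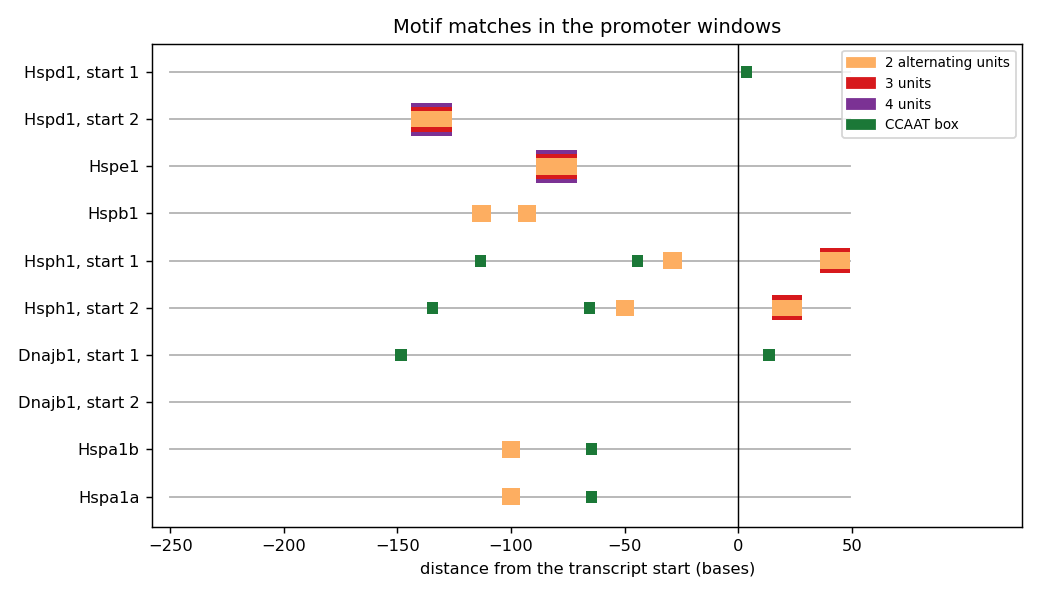
Positions of motif matches (x axis, bases from the transcript start) in the promoter windows of 7 heat shock protein genes, with 1 line per listed start. Orange, red and purple mark 2, 3 and 4 alternating units and green the CCAAT box, and the only site with 4 units is the one between Hspd1 and Hspe1.

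Other genes of the chaperone network were read from lists of related genes, taking the brightest probe of each. The lists, too, were chosen with earlier results of these data known. Against 2.24% of all genes called lower and 1.97% higher, the cytosolic co-chaperones and heat shock factors had 6 of 24 measured genes called lower and 0 higher, with a median log2 ratio of -0.16 (at an unadjusted p under 0.05 in limma, 12 lower and 2 higher, and SAM called 6 and 0). Without replicate 3, 5 were called lower, and with the background model fitted to all spots 0, with 9 lower at an unadjusted p under 0.05 in limma. The 4 with the largest changes were Bag3, a co-chaperone of Hsp70 in protein clearance, at -1.81 (limma adjusted p = 0.00337), Chordc1, a partner of Hsp90, at -1.62 (0.0109), Stip1, which hands clients from Hsp70 to Hsp90, at -1.31 (0.00188), and Cacybp, an Hsp90- and calcyclin-binding protein, at -1.29 (0.00737). With the background model fitted to all spots they were at -1.26, -0.90, -0.77 and -0.77 (limma adjusted p = 0.218, 0.301, 0.559 and 0.338). Hsf1, the factor named above, was singled out after its value was seen: it was at -0.31 with a limma adjusted p of 0.0675 and was not called, as its change was under 1.5-fold.

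Among 11 further J-domain proteins of cytosol and nucleus 3 were called lower and 0 higher, against 2.24% and 1.97% of all genes. Their median was -0.14, with 5 lower and 0 higher at an unadjusted p under 0.05 in limma, and 3 and 0 by SAM. Dnaja1 was at -1.72 (limma adjusted p = 0.0117), Dnaja4 at -0.91 (0.0328) and Dnajb2 at -0.77 (0.0217), and without replicate 3 only 1 of the 3 calls was left. With the background model fitted to all spots 0 of the 11 were called in limma, with 3 lower at an unadjusted p under 0.05, and Dnaja4 and Dnajb2 were then at -0.34 and -0.39. Of 5 other Hsp70 and Hsp110 genes, 1 was called lower, Hspa4l, a relative of Hsph1, at -1.55 (limma adjusted p = 0.0195), and the median was -0.18. Hspa4l was not called with the background model fitted to all spots, at -0.66 (limma adjusted p = 0.559).

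Of the 7 other genes listed as small heat shock proteins, Hspb11 counted among them, 0 were called in limma or SAM. Over all genes 2.24% were called lower and 1.97% higher in limma. The median of the list was -0.07 (1 lower and 1 higher at an unadjusted p under 0.05 in limma). The lowest adjusted p among them was that of Hspb8, with log2 ratios of -0.13, -0.37, -0.89 and -0.74 and a mean of -0.53 (limma adjusted p = 0.0793), a change under 1.5-fold. It was called without replicate 1, at -0.67 (limma adjusted p = 0.0497), and with median centring, at -0.68 (0.0384). The CCT chaperonin, the cytosolic folding chamber for actin and tubulin, had 0 of 9 subunits called by either test, with a median of -0.15 and 4 lower at an unadjusted p under 0.05. Cct3 had the lowest adjusted p, at -0.49 (limma adjusted p = 0.0205), a change under 1.5-fold. Whether these lists differ from the members was not tested.

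Of 11 other mitochondrial chaperones and proteases, 0 were called lower and 2 higher, against 2.24% and 1.97% of all genes. SAM gave the same counts for the list, and at an unadjusted p under 0.05 in limma 0 were lower and 3 higher. The median was 0.15. It was 0.08 without replicate 3, 0.04 with the background model fitted to all spots and 0.02 with median centring. Clpx, the unfoldase of the ClpXP protease, was at 1.27 (limma adjusted p = 0.00337), and Grpel2, a nucleotide exchange factor of mitochondrial Hsp70, at 0.76 (limma adjusted p = 0.0376), which lost its call without replicate 2 or 3. With the background model fitted to all spots neither was called, at 1.20 (limma adjusted p = 0.168) and 0.28 (0.559).

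Of 8 relatives of these chaperones in the lumen of the endoplasmic reticulum, 7 were called lower and 0 higher, against 2.24% and 1.97% of all genes. Their median was -1.08, and the highest mean in the list was 0.06. Whether they changed with the cytosolic members was not tested. Without replicate 3, 6 were called lower, and with the background model fitted to all spots 1. Hspa5 (BiP) was at -2.01 (limma adjusted p = 0.0131), Dnajb9 at -1.64 (0.00504), Hsp90b1 (Grp94) at -1.55 (0.0195) and Dnajb11 at -1.14 (0.00621), though a second, dimmer Dnajb11 probe was at 0.51. With the background fitted to all spots the limma adjusted p of Hspa5, Dnajb9 and Hsp90b1 was 0.21, 0.103 and 0.337.

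**Figure D4:**
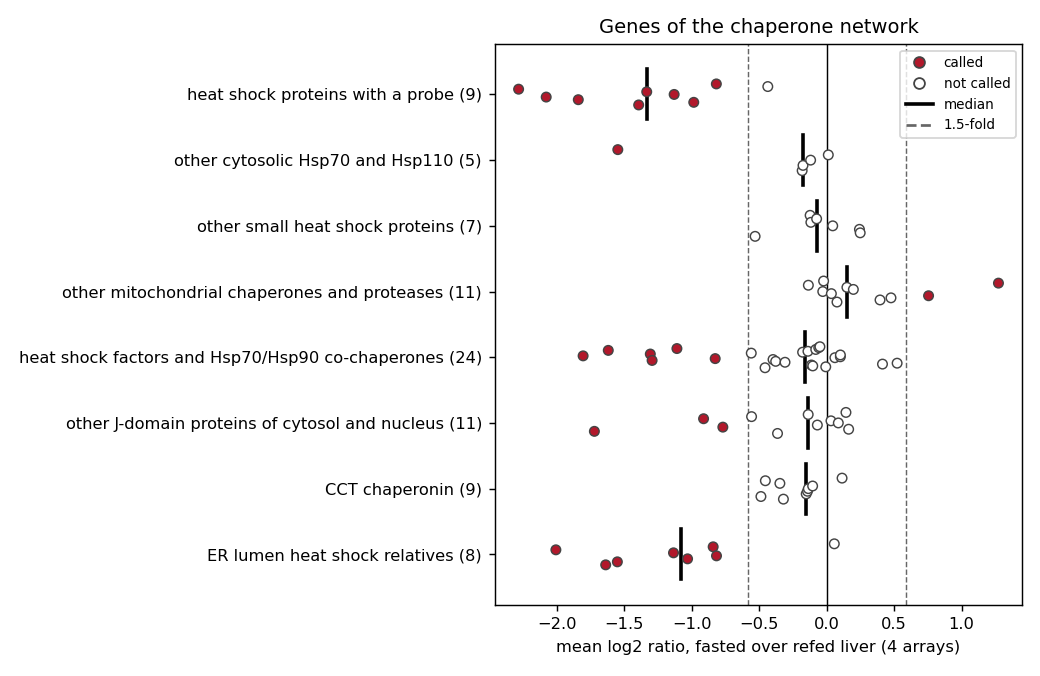
Mean log2 ratio of fasted over re-fed liver on 4 arrays (x axis) for the 9 heat shock protein genes and 7 lists of related genes, with 1 point per gene by its brightest probe, called genes in red, list medians as black bars and the number of genes in brackets. The median lies at -1.33 for the heat shock proteins and -1.08 for the endoplasmic reticulum relatives, and between -0.18 and 0.15 in the other lists.

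By root mean square difference of the 4 log2 ratios, over all 13861 genes, the genes closest to Hsph1 were Syvn1, a ubiquitin ligase of the endoplasmic reticulum (difference 0.19, mean log2 ratio -2.33), H3c15, a histone H3 gene (0.35, -2.07), Manf, a secreted endoplasmic reticulum protein (0.36, -1.98), Hsp90aa1 (0.42) and Hspa5 (0.46). Closest to the median profile of the members, leaving the members out, were Per2, a circadian clock gene (0.18, -1.29), Cacybp (0.19, -1.29), Tuba1b, an alpha tubulin (0.20, -1.18), Palld, an actin-associated protein (0.20, -1.49), and Piga, of glycolipid anchor synthesis (0.21, -1.36). All of these were called lower, but with the background model fitted to all spots H3c15 (-1.01), Per2 (-0.47), Piga (-0.66), Palld (-1.03), Cacybp, Hsp90aa1 and Hspa5 were not called, and Per2 was at -2.74 with Agilent's processed signals. The median profile coincided with the 4 log2 ratios of Hspb1, so the genes closest to it are those closest to Hspb1. Over only 4 arrays the measure says that the values were alike and no more.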

How the data were processed

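Total RNA (200 ng per liver) was amplified, labelled in a dye swap and hybridised by the study to Agilent whole mouse genome arrays on 1 slide in 1 scan. The deposited scanner files give median and mean pixel intensity per spot, local background and quality flags, from Feature Extraction (10.10.1.1 per the file headers). The authors also deposited log2 ratios normalized by loess in limma, already run as fasted over re-fed, which served as an alternative.

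Median intensity was read with limma 3.58.1 in R 4.3.3. Background was removed by normexp (offset 50) without spots whose local background exceeded 3 times the array median (55 of 177588), a rule set with earlier calls known. Ratios were normalized by loess within arrays, with control and flagged spots left out. Of 39429 probes, 19719 were kept, each with a ratio on every array and, in 1 condition or both, signals well above background on all 4. The 4 ratios of each kept probe were tested against 0 (two-sided) with lmFit and eBayes, and p-values were adjusted by the Benjamini-Hochberg method across these probes. Levels per liver came from quantile-normalized average intensity (Aquantile) and the ratio. Probes were named by RefSeq accession (26055) or symbol (4125), and coordinates are mm9 per the file headers. The steps were tested on simulated data.

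The members and lists were chosen with earlier results of these data known. Besides the members, up to 4 called genes per list by size were named, or else the one with the lowest adjusted p, and the 5 genes nearest in profile. No test compares a list with other genes. With 4 arrays, precision is limited by their number.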

Additional observations from a re-analysis of the deposited data

Results flagged for a closer look

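Among 77 results scanned, 1 had an array far from the others. For the 8 endoplasmic reticulum relatives, replicate 1 had a median log2 ratio of -0.73, while the other 3 arrays lay from -1.27 to -1.18, a gap of 0.833 of the whole range, just past the limit of Dixon's outlier test for 4 values. Chance flags about 1 in 20 such groups, so a single flag among 77 is below that rate.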

How the results depend on the processing

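The median log2 ratio of the 9 genes stayed between -1.49 and -1.10 under all 23 alternatives run on it. The background fit changed most calls: with normexp on all spots, 0 genes and 0 probes of the heat shock proteins were called (7 genes and 11 probes lower at an unadjusted p under 0.05 in limma), and the lists had 0 called genes of other Hsp70 and Hsp110, 0 of co-chaperones, 0 of J-domain proteins and 1 of endoplasmic reticulum relatives, and Clpx and Grpel2 lost their calls. Hspa1a minus Hspa8 then turned to 0.34 and Hsph1 minus Hspa8 was -0.48. The former was -1.36 with plain subtraction, -0.96 with no background correction, -1.60 with Agilent's processed signals and -1.04 with the deposited ratios. Leaving out 1 replicate at a time gave 5 to 8 genes called lower, 2 to 10 probes with a dye effect, 0 to 1 small heat shock proteins and 1 to 4 J-domain proteins, and the lowest counts came without replicate 3, except for the dye effect (without replicate 4) and the small heat shock proteins (0 without replicate 2, 3 or 4). Called dye effects numbered 6 with normexp on all spots and with plain subtraction, 0 with Agilent's processed signals, and 5 with median centring and with scaling between arrays. Median centring called 1 small heat shock protein and 2 CCT subunits lower, and Agilent's signals 2 other Hsp70 and Hsp110 genes. No fold limit gave 1 small heat shock protein, 10 co-chaperones, 5 J-domain proteins and 3 CCT subunits, and a 2-fold limit 1 J-domain protein. Over all kept probes, the counts lower and higher ranged from 15 and 5 to 1208 and 935 (with no fold limit). The fit to separate channels, with no replicate block and so no pairing by array, called the same number of genes (8), as did the deposited ratios. Other probes for the differences between members, an alternative chosen after seeing the data, kept the sign of every mean difference, and Hspd1 minus Hspe1 was then 0.24 and 0.28. The causes were not tested.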
